A study of Mus musculus with 12 samples.

Results

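Interleukin 1 (IL-1) family signalling in bone marrow–derived macrophages (BMDMs) was followed through 9 genes chosen by name, which were 4 agonists (Il1a, Il1b, Il1f9, and Il18), 3 antagonists (Il1rn, Il18bp, and the decoy receptor Il1r2), and 2 receptor chains (Il1r1 and Il1rap). All 9 were found by their identifiers among the 43626 genes of the deposited counts, and all 9 were among the 14308 genes that had enough reads to be tested. BMDMs are macrophages grown in culture from mouse bone marrow, and their mRNA was sequenced in 12 libraries, 3 for each of 4 conditions. Cells received, for 6 hours, PBS alone, 100 μg/mL of the sialylated milk sugar 3′sialyllactose (3′SL), 10 ng/mL of LPS, or both agents together (LPS + 3′SL). LPS, from the envelope of gram-negative bacteria, is a ligand of TLR4. The labels call 3′SL by the abbreviation HMO, and their treatment field describes injections of mice, so doses and hours were taken from the paper. The strain, sex, age, and number of the marrow donors are not given in the sources used here, and no label says whether the 3 libraries of a condition came from separate cultures or mice, although a legend in the paper speaks of biological repeats. P-values measure the spread between these libraries, whose source is not known. Chi-square values per gene between pairs from one condition were 15.6 to 115, beyond counting error. Differences between conditions answer how LPS and 3′SL, alone and together, were followed by changes in agonists, antagonists, and receptors. In such bulk RNA, fewer cells of a type and less RNA per cell cannot be told apart.

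IL-1α (Il1a) and IL-1β (Il1b) bind the receptor IL-1R1 (Il1r1), which then recruits the accessory chain IL-1RAcP (Il1rap) and signals through MyD88 to NF-κB. The antagonist IL-1Ra (Il1rn) occupies the same receptor without signalling, the decoy IL-1R2 (Il1r2) binds IL-1 but lacks a signalling domain, and IL-18 binding protein (Il18bp) is a secreted protein that captures IL-18 (Il18). Il1f9 encodes IL-36γ, which uses a receptor of its own together with the same accessory chain. IL-1β and IL-18 are made as inactive precursors that inflammasomes activate by proteolysis, so mRNA levels say nothing of the amount of active cytokine.

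Between 20411741 and 26851890 reads were counted on genes per library (median 23375851). The 12 libraries fell into 3 sets of 4 that deviated from their condition means together, with a mean residual correlation of 0.668 within and -0.372 between sets. Each set held 1 library of every condition and was a run of consecutive running numbers in the library titles. The labels do not say what the sets are. Values below are listed in the order of library sets 1, 2, and 3. All 8 macrophage markers on a list were detected, with a summed level of 17640 to 30044 CPM, the unit of a gene's reads scaled to the reads of its library after TMM normalization. The 8 stromal markers summed to 529–616 CPM in set 1, against 22.6–42.0 in set 2 and 54.0–96.7 in set 3, in every condition of each set. The 8 neutrophil markers summed to 139–221, 264–447, and 302–1015 CPM in sets 1, 2, and 3. Of 4 mast cell markers Mcpt4, Tpsb2, and Cma1 had no read, and of 5 lymphocyte markers Cd3e and Cd3g had none, with sums of at most 0.214 and 0.482 CPM per library. The 6 dendritic cell markers summed to 1.16–2.06 CPM in PBS and 5.81–15.8 CPM with LPS, and the 4 endothelial markers to 7.38–13.4 and 18.5–28.6 CPM, so that both sums were higher with LPS, as most of the 9 mRNAs were, and their part in these values was not tested.

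Il1a lies on chromosome 2 at 129299610–129309972 (GRCm38, minus strand) and Il1b next to it at 129364570–129371139 on the same strand. Il1rn (24336853–24351494) and Il1f9 (24186476–24193568) lie on the plus strand elsewhere on that chromosome. The windows of 250 bases upstream of the RefSeq starts of the pair with the largest changes with LPS and of their antagonist are shown 5′ to 3′ on the strand of the gene (RefSeq, GRCm38.p6), because they end where transcription of these mRNAs begins. Il1rn has an upstream start and downstream starts, of which the first is shown, and counts per gene do not say which was used. Capitals mark matches, on either strand, to motifs spelled as TGANTCA for AP-1, GAGGAAG for PU.1, TTNNGNAA for C/EBP, and TATAAA for a TATA box, the last chosen after the windows had been seen.

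Il1a, chr2:129309973-129310222, minus strand: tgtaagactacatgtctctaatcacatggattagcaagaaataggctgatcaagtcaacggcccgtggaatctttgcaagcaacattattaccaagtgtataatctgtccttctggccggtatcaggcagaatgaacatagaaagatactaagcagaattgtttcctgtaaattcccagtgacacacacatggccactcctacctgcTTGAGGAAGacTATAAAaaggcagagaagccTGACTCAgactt
Il1b, chr2:129371140-129371389, minus strand: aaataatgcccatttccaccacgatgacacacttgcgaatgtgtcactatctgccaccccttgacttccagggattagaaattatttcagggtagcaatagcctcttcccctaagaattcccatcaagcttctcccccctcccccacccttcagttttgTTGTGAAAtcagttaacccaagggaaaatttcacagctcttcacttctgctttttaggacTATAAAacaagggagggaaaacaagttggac
Il1rn upstream start, chr2:24336610-24336859, plus strand: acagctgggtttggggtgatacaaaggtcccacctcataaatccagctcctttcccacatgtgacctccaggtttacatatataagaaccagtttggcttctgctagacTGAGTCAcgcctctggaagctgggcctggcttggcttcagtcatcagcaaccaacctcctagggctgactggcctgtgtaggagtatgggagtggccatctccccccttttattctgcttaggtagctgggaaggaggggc
Il1rn first downstream start, chr2:24345041-24345290, plus strand: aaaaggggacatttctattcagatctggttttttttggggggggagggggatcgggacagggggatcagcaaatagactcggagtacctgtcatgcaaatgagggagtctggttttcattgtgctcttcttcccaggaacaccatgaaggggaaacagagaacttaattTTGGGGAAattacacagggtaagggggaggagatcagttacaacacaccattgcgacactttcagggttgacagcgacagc

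The windows of Il1a and Il1b each held a TATAAA match, at bases -32 to -27 and -31 to -26 counted back from the start, and neither Il1rn window shown did. Il1a also held an AP-1 match (-12 to -6) and a PU.1 match (-41 to -35) that overlaps a C/EBP match (-43 to -36). Il1b held 1 C/EBP match (-91 to -84), and the upstream Il1rn window held 1 AP-1 match (-141 to -135). Of 32851 RefSeq windows of the same length, 12.4% held TATAAA, 6.75% AP-1, 10.6% PU.1, and 36.8% C/EBP. Over the 12 windows of the 9 genes, NF-κB sites, searched by a consensus, matched only in a window upstream of a downstream Il1r1 start (3.9% of all windows), and the interferon-stimulated response element, likewise searched by a consensus, matched in none (2.98%). These matches are a description of letters, and a missing match says only that the letters are not in this window.

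In unstimulated macrophages the antagonist Il1rn was the most abundant of the 9 mRNAs, and with LPS the agonist Il1b was. Per kilobase of exon, Il1rn stood at 54.8 ± 9.64 CPM (SD, n = 3) in PBS, ahead of Il18 (8.95 ± 0.303), Il18bp (3.59 ± 1.55), Il1b (1.75 ± 1.0), Il1a (1.01 ± 0.299), Il1rap (0.711 ± 0.0596), Il1f9 (0.51 ± 0.201), Il1r1 (0.0926 ± 0.0293), and Il1r2 (0.0295 ± 0.0389). In this order, the libraries of Il18bp and Il1b, of Il1b and Il1a, and of Il1a and Il1rap overlapped, and the other neighbours did not. With LPS the order per kilobase was Il1b (1560 ± 404), Il1a (696 ± 176), Il1rn (587 ± 424), Il18 (116 ± 16.5), Il18bp (26.8 ± 6.31), Il1f9 (3.48 ± 2.9), Il1rap (2.61 ± 0.62), Il1r2 (0.667 ± 0.692), and Il1r1 (0.561 ± 0.421). Here Il1a and Il1rn, Il1f9 and Il1rap, and Il1r2 and Il1r1 overlapped. With LPS + 3′SL, Il1rn (393 ± 295) stood above Il1a (241 ± 140), below Il1b (718 ± 429), and overlapped both.

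**Figure D1:**
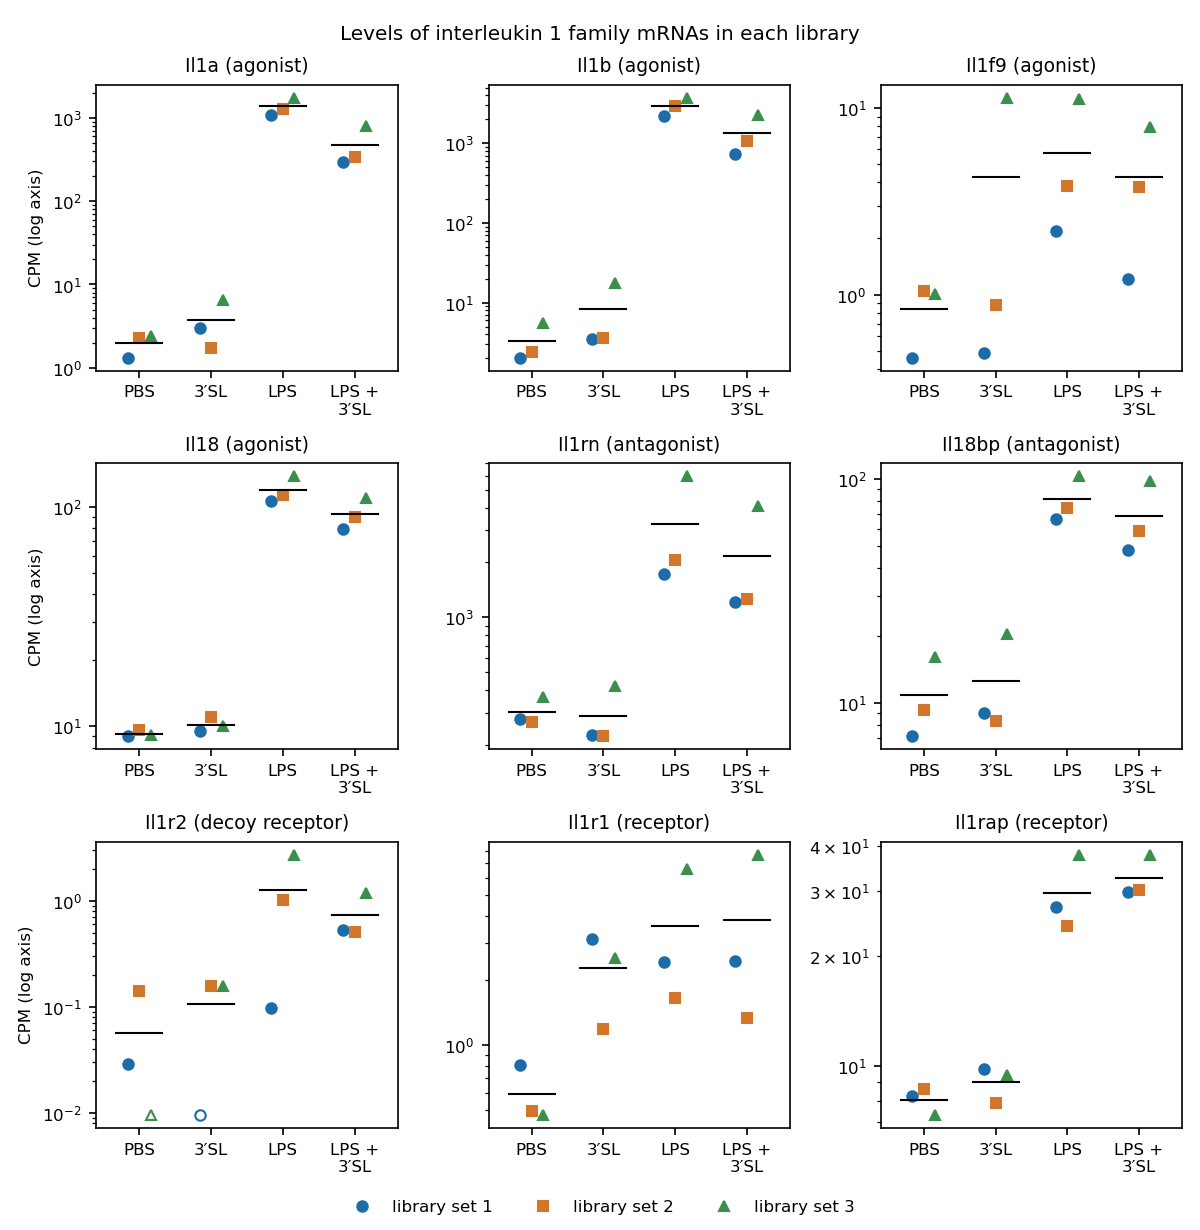
CPM of each of the 9 mRNAs in each library (log axes that differ between panels), by condition; symbols are the 3 library sets, horizontal lines the means of 3 libraries, and open symbols at the foot of the Il1r2 panel libraries with 0 reads. Il1a and Il1b lie at 1.32–17.9 CPM without LPS and at 298–3772 CPM with it, and Il1f9 has 1 3′SL library at 11.4 CPM.

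LPS raised 8 of the 9 mRNAs against PBS (edgeR's quasi-likelihood test, Benjamini-Hochberg adjusted p under 0.05 and at least 1.5-fold), while 18.3% of all genes tested were called higher. All 9 had a higher fitted mean, with a median log2 change of 3.42 against -0.061 over all genes. The agonists Il1a and Il1b changed most, and only 6 and 1 of the genes tested had a larger log2 fold change. In 8 of the 9, every LPS library was above every PBS library, which held for 27.3% of all genes, and the exact permutation test then gave p = 0.1, the smallest that 3 against 3 libraries allow. With the library sets as a block in the model, all 9 were called higher, against 20.5% of all genes, and DESeq2 likewise called all 9, against 19.7% of all genes.

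Il1b, whose product drives fever and leukocyte recruitment, was at 2.04, 2.42, and 5.53 CPM in PBS and at 2234, 2916, and 3772 CPM with LPS, a log2 fold change of 9.80 (SE 0.93, adjusted p = 1.28e-05). Il1a, an alarmin that is active without inflammasome processing, was at 1.32, 2.28, and 2.39 CPM in PBS and 1088, 1271, and 1760 CPM with LPS (9.43, SE 0.67, adjusted p = 2.26e-06). The PBS levels rested on 46–71 reads of Il1a and 69–164 of Il1b per library, and those with LPS on 22288–28670 and 45751–61454. By group means per kilobase of exon, both mRNAs thus moved from the middle of the order of the 9 to its top. The place of Il1a above Il1rn depended on the length used. With the longest coding transcript of each gene, Il1a to Il1rn was 0.608 with LPS. Il18, which in macrophages is known to be present as precursor before stimulation, was at 8.99, 9.58, and 9.11 CPM and at 106, 113, and 138 CPM with LPS (3.69, SE 0.15). It had the smallest SE of the 9 in this comparison, and its 3 sets moved almost alike (3.56, 3.57, and 3.93). Il1f9 was at 0.459, 1.05, and 1.01 CPM and at 2.20, 3.83, and 11.2 CPM with LPS. The groups did not overlap, but the change (2.76, SE 1.15) did not pass the edgeR test (adjusted p = 0.0711), and it did with the block (2.54, adjusted p = 0.00288) and with DESeq2 (2.82, adjusted p = 0.013).

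Among the antagonists, Il1rn was at 278, 267, and 364 CPM in PBS and 1740, 2058, and 5952 CPM with LPS (log2 fold change 3.42, SE 0.61, adjusted p = 0.000904). Its LPS library of set 3 was far above the others, and without it the change was 2.65. Il18bp was at 7.09, 9.33, and 16.1 CPM and 66.1, 74.5, and 103 CPM with LPS (2.90, SE 0.43, adjusted p = 0.000278), with set 3 highest in both conditions. The decoy Il1r2 had 1, 4, and 0 reads in PBS and 2, 21, and 44 with LPS, where a library with 0 reads allows up to 3. Those groups overlapped through set 1, and Il1r2 reached the level needed for testing (0.428 CPM) in 0 of 6 libraries without LPS, 2 of 3 with LPS, and 3 of 3 with both agents, so that its call (4.40, adjusted p = 0.0159) followed from the choice of genes. It was lost without the PBS library of set 1 (4.08, adjusted p = 0.0599) or the LPS library of set 3 (3.23, adjusted p = 0.0772), and it was 5.94 without the PBS library of set 2. Leaving it aside, 7 of the other 8 mRNAs were called. The neutrophil marker sum was 547 CPM in the PBS library of set 3, in which Il1r2 had no read. It was 1015 CPM in the LPS library of set 3, in which Il1r2 had 44 reads. The part of neutrophils in the Il1r2 values was not tested.

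The receptor chains changed least among those called. Il1rap was at 8.27, 8.63, and 7.32 CPM in PBS and 27.2, 24.1, and 37.6 CPM with LPS (1.87, SE 0.18, adjusted p = 1.48e-05), and its libraries were well apart. Il1r1, the signalling receptor of IL-1, was scarce, with 28, 14, and 14 reads in PBS (0.804, 0.491, and 0.472 CPM) and 50, 34, and 108 with LPS (2.44, 1.65, and 6.63 CPM). Its groups did not overlap (2.58, SE 0.73, adjusted p = 0.0133), but the call was lost without the LPS library of set 3 (1.78, adjusted p = 0.0678). Stromal cells are known to express Il1r1, and the stromal marker sum was highest in set 1 in every condition. Il1r1 was highest in set 1 in PBS and with 3′SL and highest in set 3 with LPS, and the part of stromal cells in its values was not tested.

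3′SL alone gave no call among the 9 mRNAs with edgeR, as for all genes tested (0.0% called), and 1 of the 9, Il1r1, had an unadjusted p under 0.05. DESeq2 also called none of the 9, against 0.468% of all genes called higher. Relative to PBS, 8 of the 9 had a higher fitted mean (median log2 change 0.88 against 0.001 over all genes), and Il1rn was at -0.07. Without the 3′SL library of set 3, 6 of the 9 were higher and the median was 0.10, and in the block fit without set 3 it was 0.08. Il1r1 was at 3.13, 1.19, and 2.54 CPM with 3′SL against 0.804, 0.491, and 0.472 CPM in PBS, from 84, 30, and 64 reads against 28, 14, and 14. It was the only 1 of the 9 whose 3′SL libraries all lay above the PBS libraries (9.02% of all genes), and the changes within the sets were 1.96, 1.28, and 2.43. Its log2 fold change of 1.94 (SE 0.71) had an adjusted p of 0.433, which became 0.0447 with the sets as a block (1.89), where 1.98% of all genes were called higher. The block call was lost without set 1 (1.86, adjusted p = 0.224) or without set 2 (2.12, adjusted p = 0.17).

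Il1b was at 3.54, 3.58, and 17.9 CPM with 3′SL, above the PBS library of its own set in all 3 sets (0.79, 0.56, and 1.69 on the log2 scale). The libraries overlapped all the same, the log2 fold change was 1.32 (SE 0.68, adjusted p = 0.563), and with the block it was 1.15 (adjusted p = 0.0505). Without set 3 the block fit called Il1b, at a smaller change of 0.66 (adjusted p = 0.02). Il1a was at 2.98, 1.75, and 6.56 CPM, higher than PBS in sets 1 and 3 and lower in set 2 (0.92, SE 0.52, adjusted p = 0.605). Both agonists thus stayed far below their LPS levels, and each had its highest 3′SL value in set 3. Il1f9 showed this most, with 13 and 22 reads in the 3′SL libraries of sets 1 and 2 and 287 in that of set 3, which is as high in CPM (11.4) as the LPS library of the same set (11.2). Its log2 fold change of 2.34 (adjusted p = 0.538) was -0.34 without that library. Il18 (10.2 ± 0.745 CPM), Il18bp (12.6 ± 6.77 CPM), Il1rn (289 ± 112 CPM), and Il1rap (9.04 ± 0.992 CPM) lay close to their PBS means of 9.22, 10.8, 303, and 8.07 CPM, with fitted changes between -0.07 and 0.22 and none past the test. Il1r2 had 0, 4, and 4 reads, too few for a change to be detectable.

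**Figure D2:**
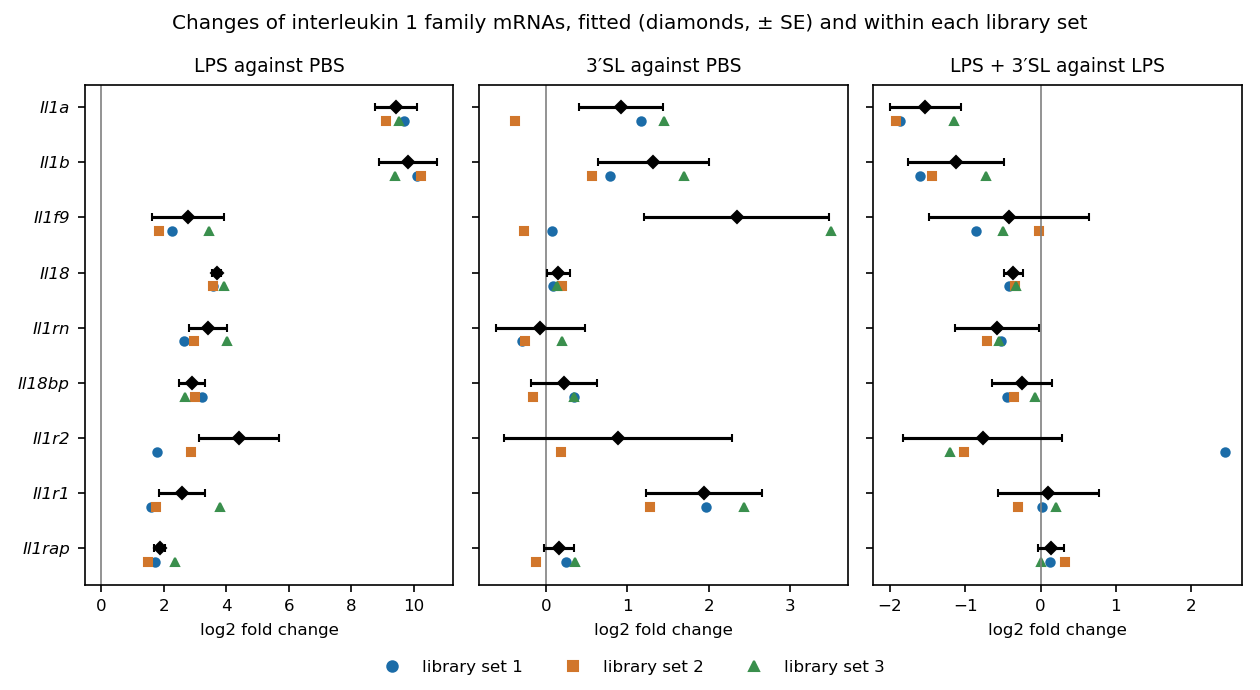
log2 fold changes of the 9 mRNAs in 3 comparisons (axes differ between panels); black diamonds are the edgeR estimates with their SE over 12 libraries, and coloured symbols are log2 ratios of CPM within each library set, left out where a library had 0 reads. With LPS + 3′SL against LPS, Il1a (-1.92 to -1.15) and Il1b (-1.60 to -0.72) lie below 0 in every set.

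Adding 3′SL to LPS was accompanied by lower fitted means of the 4 agonists and the 3 antagonists, while those of both receptor chains were slightly higher, and none of the 9 passed the edgeR test (0.0% of all genes were called). The median log2 change of the 9 was -0.42 against -0.008 over all genes. In this fit, which leaves the library sets out, the median depended on single libraries. Without the LPS library of set 3 it was 0.20, with 4 of the 9 lower, and without the LPS + 3′SL library of set 3 it was -1.19. The block fit gave a median of -0.40, with 7 of the 9 lower. Without set 1, 2, or 3 the block median was -0.33, -0.37, and -0.37, each with 7 of the 9 lower. In the edgeR test without the block, Il1a and Il18 had an unadjusted p under 0.05. DESeq2 called none of the 9, against 0.461% of all genes called lower. With the library sets as a block, 2 of the 9, Il1a and Il1b, were called lower, against 0.762% of all genes.

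Il1a was at 1088, 1271, and 1760 CPM with LPS and at 298, 336, and 793 CPM with LPS + 3′SL, which is 2.89-fold lower in the fit (log2 fold change -1.53, SE 0.47, adjusted p = 0.4). It was the only 1 of the 9 whose groups did not overlap, where 6.5% of all genes had every library lower and a further 6.24% every library higher. Its level was lower in 3 of 3 sets, with log2 ratios of -1.87, -1.92, and -1.15. With the block the change was -1.65 (SE 0.21, adjusted p = 0.00266). Il1b was at 2234, 2916, and 3772 CPM against 737, 1078, and 2293 CPM, where the highest LPS + 3′SL library, of set 3, was above the lowest LPS library, of set 1. It was lower in 3 of 3 sets (-1.60, -1.44, and -0.72), with a log2 fold change of -1.12 (SE 0.64, adjusted p = 0.849) that was -1.30 with the block (SE 0.25, adjusted p = 0.0221). For both genes the difference was smallest in set 3. The block calls were lost without set 1 (Il1a -1.54, adjusted p = 0.211, and Il1b -1.13, adjusted p = 0.442) and without set 2 (-1.51, adjusted p = 0.0794, and -1.20, adjusted p = 0.3), and held without set 3 (-1.89, adjusted p = 1.79e-06, and -1.51, adjusted p = 5.67e-07). Even so, both stayed far above their levels without LPS in every library.

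The other members of the family differed less. Il1rn was at 1211, 1254, and 4063 CPM with LPS + 3′SL, lower than with LPS in each set (-0.52, -0.71, and -0.55) by less than the spread between sets (log2 fold change -0.58, SE 0.56, adjusted p = 1.0). It was called lower only by the block fit without set 3 (-0.61, adjusted p = 0.00022). Without the LPS library of set 3, the edgeR estimate turned to 0.20. Il18 was at 79.4, 89.9, and 110 CPM, lower by nearly the same amount in each set (-0.42, -0.34, and -0.33), and its change of -0.36 (SE 0.13) had an adjusted p of 0.569, or 0.0924 with the block. Il18bp was at 48.4, 58.5, and 98.0 CPM (-0.25, SE 0.40), and Il1f9 at 1.21, 3.77, and 7.88 CPM (-0.42, SE 1.06). Neither passed any of these tests, and Il1f9 was at 0.51 without the LPS library of set 3 and at 0.03 without the LPS + 3′SL library of set 1. Il1r2 had 11, 11, and 22 reads against 2, 21, and 44, higher in set 1 and lower in the others. Of the receptor chains, Il1rap was at 29.8, 30.2, and 37.7 CPM (0.14, SE 0.17) and Il1r1 at 2.47, 1.33, and 7.67 CPM (0.10, SE 0.67). The sign for Il1r1 depended on single libraries, with values of -0.90 to 0.90 as each of the 12 was left out.

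The change with 3′SL in the presence of LPS was then compared with the change with 3′SL alone by the interaction of both treatments. For all 9 mRNAs the first was lower in the fit, although the value for Il1rap (-0.03) was 0.16 when libraries were scaled by total counts, and edgeR called none of them (0.0% of all genes), with Il1a, Il1b, and Il18 at an unadjusted p under 0.05. DESeq2 called none of the 9, against 0.252% of all genes in this direction. The block fit called Il1a (-2.49, adjusted p = 0.011) and Il1b (-2.45, adjusted p = 0.0153), where 1.29% of all genes were called in this direction. Within the sets the difference was -3.04, -1.54, and -2.60 for Il1a and -2.39, -2.00, and -2.41 for Il1b, and it lost its block call for both without set 1 or set 2. Il1r1, which was higher with 3′SL alone and not beside LPS, had -1.94, -1.59, and -2.22, with a block estimate of -1.85 (adjusted p = 0.168). The 2 changes share no library, but their difference on a log scale sets the low levels without LPS against the far higher levels with it.

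Agonist was then set against antagonist within each library, as the ratio of their levels per kilobase of exon. In PBS, Il1rn exceeded Il1b 34.4-fold (geometric mean, n = 3), with 3′SL 15.6-fold, and with LPS Il1b exceeded Il1rn 3.04-fold, which was 1.93-fold with LPS + 3′SL. The log2 ratio rose with LPS by 6.71, and by 7.45, 7.29, and 5.38 within the sets. With LPS + 3′SL against LPS it differed by -0.66 (-1.08, -0.72, and -0.17 within the sets), and those libraries overlapped. With 3′SL alone against PBS the same log2 ratio was higher, by 1.14 (1.09, 0.83, and 1.49 within the sets). The libraries were only just apart, with the highest PBS library at -4.5 and the lowest 3′SL library at -4.47, against SDs of 0.54 and 0.83. Il1a per Il1rn was 0.018 in PBS, 0.0329 with 3′SL, 1.36 with LPS, and 0.657 with LPS + 3′SL. For this pair the libraries with LPS + 3′SL did not overlap those with LPS, and the log2 ratio differed by -1.05 (-1.35, -1.21, and -0.60 within the sets). The highest LPS + 3′SL library was at -0.41 and the lowest LPS library at -0.27. Both agonists of the IL-1 receptor thus gained on their antagonist with LPS, and in each set both ratios were lower where 3′SL was added to LPS. With 3′SL alone, Il1a to Il1rn was higher in sets 1 and 3 (1.46 and 1.25) and lower in set 2 (-0.12). The log2 ratio of Il1a to Il1b was lower in each set with LPS + 3′SL than with LPS (-0.27, -0.49, and -0.43). With 3′SL alone against PBS it differed by 0.38, -0.95, and -0.24 within the sets. No test of the ratios was run. The exact permutation test of 3 against 3 libraries, which leaves the sets out, could give at best p = 0.1.

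Where a ratio crosses 1 depends on the length assigned to Il1rn, whose exons sum to 5535 bases while its longest coding transcript has 2474 and its shortest 321. With the longest coding transcript of each gene, a choice made after the data had been seen, Il1b to Il1rn was 1.91 in the LPS libraries and 1.21 after both agents, while Il1a to Il1rn was 0.608 and 0.294, so that Il1a no longer exceeded Il1rn with LPS. Differences between conditions are the same with either length. Il18 exceeded Il18bp in every condition, 2.65-fold in PBS, 2.59-fold with 3′SL, 4.36-fold with LPS, and 4.15-fold with LPS + 3′SL, with either length. This log2 ratio was 0.72 higher with LPS than with PBS (0.34, 0.57, and 1.26 within the sets). The libraries were only just apart, with the highest PBS library at 1.9 and the lowest LPS library at 1.99. With LPS + 3′SL against LPS the log2 ratio differed by -0.07, which is within the spread.

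**Figure D3:**
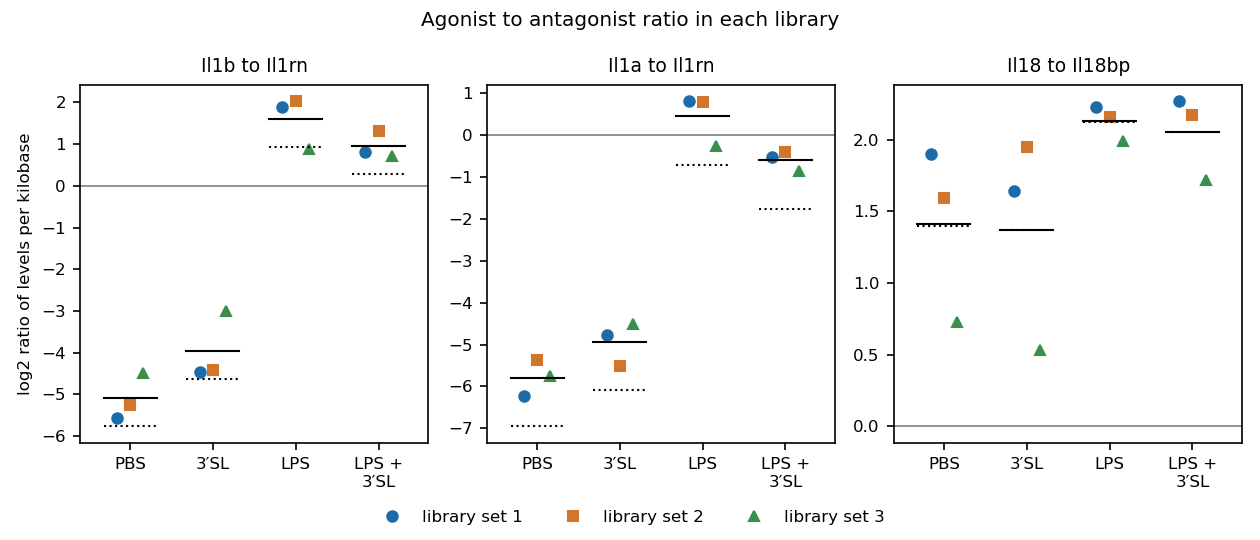
log2 ratio of the level per kilobase of exon of an agonist to that of its antagonist in each library, by condition; solid lines are means of 3 libraries, dotted lines the same means with the longest coding transcript as length, and the grey line marks equal levels. The Il1b to Il1rn mean goes from -5.10 in PBS to 1.61 with LPS and 0.95 where 3′SL was added, and the Il18 to Il18bp mean stays between 1.37 and 2.13.

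Other genes of the pathway were taken from 3 lists. Of 12 further ligands and receptors of the IL-1 family, 5 had enough reads to be tested. With LPS, 3 of them rose, which were the alarmin Il33 (log2 fold change 7.58, SE 1.42), the IL-36 receptor Il1rl2 (1.35, SE 0.40), and the IL-18 receptor chain Il18rap (1.67, SE 0.60), and none fell with edgeR (18.3% of all genes were called higher and 20.2% lower). Il33 had 1, 0, and 0 reads in PBS and 14, 37, and 108 with LPS. It reached the level needed for testing only in libraries with LPS, so that its call followed from the choice of genes. The IL-33 receptor Il1rl1 (edgeR -1.01, adjusted p = 0.42) and the inhibitory receptor Sigirr (edgeR -2.33, adjusted p = 0.0541) were called lower by the block fit (-1.32 and -2.51), as were 24.0% of all genes, and DESeq2 called Sigirr lower as well (-2.32, adjusted p = 0.0252). The median of the 5 was 1.35 against -0.061 over all genes. As it includes Il33, whose rise followed from the choice of genes, nothing is concluded from it. Without Il33, the edgeR changes were 1.67 (Il18rap), 1.35 (Il1rl2), -1.01 (Il1rl1), and -2.33 (Sigirr). Of 19 signalling genes, 9 rose with LPS and 2 fell (median 0.67). The largest rise was that of Nfkbiz, an NF-κB cofactor (5.01, SE 0.31), followed by those of the NF-κB inhibitor Nfkbia (3.80), the kinase homologue Irak3, which restrains the pathway (3.64), the ubiquitin ligase Peli1 (3.28), and the adaptor Myd88 (2.87), and the largest fall was that of another such ligase, Peli2 (-1.54). Of 16 genes of cytokine maturation and release, 9 rose and none fell (median 0.83), among them Mefv, which encodes the inflammasome sensor pyrin (6.25, SE 0.90), Casp4 (4.78), Nlrp3 (3.36), Casp1, which cleaves the IL-1β and IL-18 precursors (3.21), and the pore-forming protein gene Gsdmd (2.44).

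None of the 40 tested genes of these lists was called by edgeR in either comparison with 3′SL, where 2 had an unadjusted p under 0.05 with LPS + 3′SL and 6 with 3′SL alone, and their list medians lay between -0.16 and 0.13. With the block, Nfkbiz (-0.86, adjusted p = 0.00677) and Irak3 (-0.82, adjusted p = 0.00125) were called lower with LPS + 3′SL than with LPS, against 0.762% of all genes. DESeq2 called Irak3 and no other gene of the lists in that comparison (-0.82, adjusted p = 0.0074), against 0.461% of all genes called lower. For 3′SL alone, DESeq2 called Panx1 higher and Pycard lower, where 0.468% of all genes were called higher and 0.147% lower. The block fit called Peli2 (0.60), Ikbkg (0.97), Casp4 (0.65), Mefv (1.64), and the channel gene Panx1 (1.74) higher, where 1.98% of all genes were. It called the inflammasome adaptor Pycard (-0.87) lower, where 0.86% of all genes were. Over all genes, 283 were called higher by this block fit, and 2 and 3 without set 1 and without set 2. Whether the block calls of these list genes hold without single sets was not examined.

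The mRNAs whose log2 levels over the 12 libraries were most like those of a member were named as a description, since the libraries with and without LPS form separate groups and all points share that contrast. For Il1a these were Ralgds, Tent5a, and Nfkbiz (Pearson r 0.9975, 0.9974, and 0.9971), for Il1b Tnfrsf1b, Sod2, and Cflar (0.9988 to 0.9982), and for Il18 Slc31a1, Nt5c3, and Tlr3 (0.9987 to 0.9979). For Il1rn they were Pfkfb3, Fcgr4, and Chmp2a (0.9952 to 0.9929), for Il1r1 Nup210l, Sphk1, and Gab1 (0.9686 to 0.9368), and for Il1r2 Crry-ps, Tnks, and Cabin1 (0.9569 to 0.9459). Exons of 4 of the 9 genes overlap a gene on the other strand, by 11.2% of exon bases for Il1a (Gm14023, 641 reads over 12 libraries), 1.31% for Il1b (Il1bos, 201 reads), 2.64% for Il18bp (Numa1, 49946 reads), and 4.86% for Il1rap (Gm20319, 1 read). Whether the counting used the strand is not given in the sources used here, so reads of these stretches cannot be assigned with certainty.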

How the data were processed

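For each gene, the authors deposited whole-number read counts, not normalized, of 12 polyA-selected, stranded libraries. The submitters' processing notes list FastQC, Trimmomatic, STAR, HTSeq, and DESeq2 without versions. The genome build, the annotation, and the strand setting are not given in the sources used here. Between 33.2% and 37.1% of the entries per library were not counted on a gene and were left out. Names, positions, and exon lengths were taken from GENCODE M21 (GRCm38), which matched 42548 identifiers, and sequences from RefSeq.

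Counts were analysed with edgeR 4.0.16 in R 4.3.3 (filterByExpr with conditions as groups, TMM factors, 1 quasi-likelihood model over all libraries). Benjamini-Hochberg adjustment ran over 14308 genes, and a call needed at least a 1.5-fold change with an adjusted p under 0.05. CPM were computed with the TMM factors. Floors of 3 counts cover counting error only. Genes named are the 9 members, the 5 tested genes of the further family list, in each other list the largest rise and fall called with LPS, and for 6 members the 3 genes with the most similar levels over 12 libraries. Further list genes were named after their values were seen. Members and lists were chosen with earlier results of these data known.

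The labels carry no replicate number. The library sets, found by clustering residuals of 2000 genes, were used as a block only as an alternative (common biological coefficient of variation 0.31 without and 0.133 with it). Further alternatives were other scaling factors, DESeq2 1.42.0, other filters, fewer conditions in the fit, no fold minimum, each library left out, and, added after the data were seen, the block without each set and another length for ratios. The fits were tested on simulated counts without library sets, with a spread close to the 0.133 of the block fit. As the spread without the block was 0.31, the simulation does not show which changes that fit could detect.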

Additional observations from a re-analysis of the deposited data

Results flagged for a closer look

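With the library sets as a block, the change with 3′SL beside LPS minus the change with 3′SL alone differed from 0 for Il1a (-2.49 on the log2 scale, adjusted p = 0.011) and Il1b (-2.45, adjusted p = 0.0153), by a test of the difference itself. In this direction the block fit called 1.29% of all genes, and both calls were lost without set 1 or without set 2. Without the block, edgeR gave -2.45 (adjusted p = 0.646) and -2.44 (adjusted p = 0.746). The libraries with 3′SL alone held 44–165 reads of Il1a and 90–450 of Il1b. Both agonists were lower with LPS + 3′SL than with LPS in 3 of 3 sets. With 3′SL alone, Il1b was higher than with PBS in 3 of 3 sets and Il1a in 2 of 3.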

How the results depend on the processing

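The 8 calls with LPS against PBS numbered 6 to 9 over all alternatives. With 3′SL, edgeR's 0 calls were replaced under the library set block by 2 for LPS + 3′SL against LPS, 1 for 3′SL against PBS, and 2 for the interaction, with total counts in the block fit by 2, 1, and 2, and in the block fit without set 3 by 3, 2, and 2. In all other alternatives run there were 0, the block without set 1 or set 2 included. Among values of single genes, 753 kept their sign and side of the threshold, 31 changed sign, 26 newly passed, and 3 no longer passed. Total counts moved the median of all genes with LPS to -0.71, and the 8 calls stood.

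No changed sign belongs to a value that edgeR called. As each library was left out, LPS + 3′SL against LPS ranged from -1.19 to 0.51 for Il1f9, -1.40 to 0.20 for Il1rn, -1.32 to 0.40 for Il1r2, and -0.90 to 0.90 for Il1r1. For 3′SL against PBS the range was -0.34 to 2.87 for Il1f9, -0.47 to 0.09 for Il1rn, and -0.36 to 0.62 for Il18bp. For the interaction it was -1.33 to 0.27 for Il1rn, -0.86 to 0.11 for Il18bp, and -0.15 to 0.18 for Il1rap. These ranges come from fits that leave the library sets out, in which 1 condition then lacks a set. Within the sets, LPS + 3′SL against LPS was lower in each for Il1rn (-0.52, -0.71, and -0.55) and Il1f9 (-0.86, -0.02, and -0.50). For Il1r2 and Il1r1 the signs within the sets were mixed. The block without set 3 gave 0.27 (Il1r2) and -0.12 (Il1r1) for LPS + 3′SL, -0.14 for both Il1f9 and Il1r2 with 3′SL, and 0.41 (Il1r2) and 0.19 (Il1rap) for the interaction. Il1rap's interaction was also 0.16 with total counts, with or without the block, 0.01 with all genes of at least 1 count, and 0.05 in the block without set 1. The cause was not tested.

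The log2 ratio of Il1b to Il1rn with LPS against PBS was 7.45 within set 1 and 5.38 within set 3, and that of Il1a to Il1rn 7.04 and 5.49. That of Il18 to Il18bp with LPS + 3′SL against LPS was 0.04 and 0.01 within sets 1 and 2, and -0.18 to 0.10 as each library was left out. With the longest coding transcript, the log2 ratio of Il1a to Il1rn with LPS was -0.72. No ratio of Il1r1 to Il1r2 was formed, since libraries had 0 reads of Il1r2. Il1r2 and Il1r1 rest on at most 44 and 143 reads per library, which limits what could be detected.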
